A study of Mus musculus with 12 samples.

Results

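The 32 lymphocyte genes described here are marker genes of T cells, cytotoxic and natural killer (NK) cells, and B and plasma cells, measured by RNA-seq in 12 mouse liver samples. They were found by gene symbol in the deposited count table, where 31 of them had a row among 27304 genes, and Ighm is not analysed here. By the role each gene is known for, 16 are T cell genes, 10 are cytotoxic and NK cell genes and 5 of the genes with a row are B and plasma cell genes. The samples came from livers of Apoe-/-AhR-/- and Apoe-/- mice, with 3 male and 3 female samples of each genotype. Mice of both genotypes lacked apolipoprotein E, a lipoprotein ligand whose loss raises plasma cholesterol, and all were kept for 12 weeks on a diet labelled HFD. The Apoe-/-AhR-/- mice also carried the AhR-/- genotype, the loss of the aryl hydrocarbon receptor. No source used here gives the alleles, the strain background or the age of the mice. The livers were flushed with PBS before RNA extraction, and the average RNA integrity number was 7.0.

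T cells recognise antigen through a receptor whose signal is carried into the cell by the CD3 chains, the kinase Lck and the kinase Zap70, with CD4 or CD8 as co-receptor. Cytotoxic T cells and NK cells kill with perforin and granzymes released from granules, while B cells signal through the Cd79a and Cd79b pair and plasma cells secrete antibody. The liver holds resident populations of these cells, with many NK and NK-like T cells in its sinusoids. The aryl hydrocarbon receptor is a ligand-activated transcription factor that also acts in several lymphocyte types. In whole liver, fewer cells of a type and less RNA per cell cannot be told apart.

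The libraries held 9794253 to 18924880 counts. Levels are CPM, the count scaled to a common library size, after TMM scaling, a trimmed-mean correction for differences in RNA composition, and 1 count was worth 0.0394 to 0.109 CPM. The 31 genes together took 412 to 1128 counts in the Apoe-/-AhR-/- libraries and 338 to 531 counts in the Apoe-/- libraries, so that most rested on few reads. Ahr itself, counted over the whole gene, had 13.7 to 24.4 CPM in Apoe-/-AhR-/- livers against 12.4 to 25 CPM in Apoe-/- livers, and whole-gene counts cannot show the loss of an exon. Cyp1a2, a classical target of the receptor, had 47 to 217 CPM in Apoe-/-AhR-/- livers against 452 to 1170 CPM in Apoe-/- livers and was lower in Apoe-/-AhR-/- livers (log2 fold change -3.05 ± 0.36 SE, edgeR adjusted p = 0.00663). Mitochondrially encoded genes took 30.4% to 59.8% of the counts in Apoe-/-AhR-/- libraries and 46.7% to 69.8% in Apoe-/- libraries.

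A pair of libraries stood apart. The summed level of neuron and glia markers was 579 CPM in Apoe-/-AhR-/- female replicate 1 and 376 CPM in Apoe-/- male replicate 1, while the remaining 10 libraries had 67 to 149 CPM, and this pair is called the 2 neural libraries here. Apoe-/-AhR-/- female replicate 1 also had 154 CPM of Xist, which coats the inactive X chromosome, where the remaining females had 679 to 1290 CPM and the males 2.33 to 13.2 CPM. Its level of the Y-linked gene Kdm5d was 2.01 CPM, where the remaining females had 0 to 0.207 CPM and the males 5.21 to 8.6 CPM. Other Y-linked genes lay closer to the females. Eif2s3y had 2.1 CPM (remaining females 0 to 0.982, males 29.5 to 47.4) and Uty 0.549 CPM (remaining females 0.0552 to 0.436, males 5.27 to 9.74). Ddx3y, at 1.83 CPM, was inside the range of the remaining females (0.12 to 2.51 CPM, males 37.8 to 71.8). For the lymphocyte genes tested in the averaged comparison, the estimate without this pair stands beside the estimate with it. For the other genes of the same lineages, named at the end of the results, it is not given.

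Compared per length, the levels of the lymphocyte genes spanned a wide range. Ccl5, a chemokine made by cytotoxic lymphocytes, was highest, with 6.3 CPM per kb of exon in Apoe-/-AhR-/- livers and 3.35 CPM per kb in Apoe-/- livers. Lck followed with 1.89 CPM per kb in Apoe-/-AhR-/- livers against 1.99 in Apoe-/- livers, and Nkg7, a granule membrane protein of killer cells, with 1.84 CPM per kb in Apoe-/-AhR-/- livers against 0.795 in Apoe-/- livers. Cd79a and Pax5 came next over the 12 libraries, at 1.1 and 1.08 CPM per kb. At the low end, Eomes, Prf1 and Cd5 had 0.0594, 0.0576 and 0.0553 CPM per kb over the 12 libraries.

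**Figure D1:**
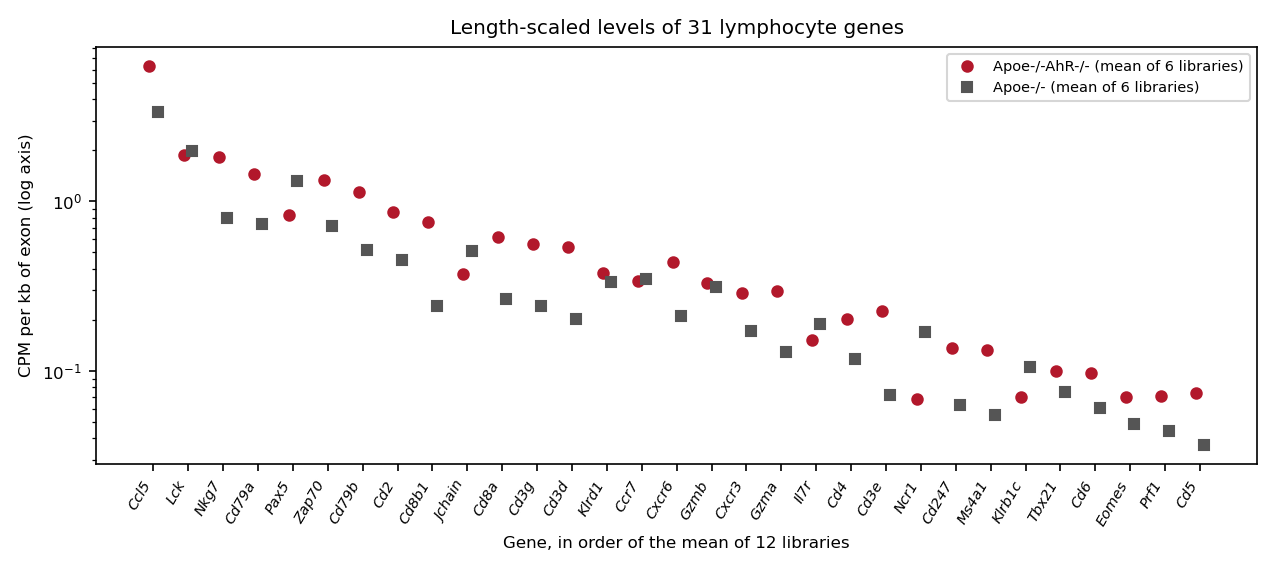
Length-scaled levels (CPM per kb of exon, log axis) of the 31 lymphocyte genes as means of 6 Apoe-/-AhR-/- libraries (circles) and 6 Apoe-/- libraries (squares), in order of the mean over 12 libraries. Ccl5 was highest at 4.83 CPM per kb and Cd5 lowest at 0.0553 CPM per kb.

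The question of the study's main comparison was how the loss of the receptor changed the livers of these mice. No lymphocyte gene passed the test for a genotype effect averaged over the sexes: of the 31 genes, 22 had enough counts to enter edgeR's quasi-likelihood test, and 0 had an adjusted p under 0.05, where 1.06% of the 13641 tested genes did (0.528% higher and 0.528% lower). DESeq2 called 1 of them, Cd8b1, where it called 4.87% of all tested genes, and limma on the authors' deposited values called 0. Without the 2 neural libraries edgeR called 0 as well, where it called 3.14% of all tested genes. Of the 22 genes, 15 reached the count minimum in fewer than 3 Apoe-/- libraries, so that many entered the test through the Apoe-/-AhR-/- libraries. Counts over genes are therefore given for all 31 from a fit without the low-count filter. In that fit 0 were called at an adjusted p under 0.05, where 0.579% of 20027 genes were. At an unadjusted p under 0.05, 10 of the 31 genes were higher in Apoe-/-AhR-/- livers, where 5.86% of all genes were, and 0 were lower, where 5.15% of all genes were. The median log2 fold change was 0.84 over the 31 genes and 0.07 over all genes, with positive values for 24 of the 31 genes and for 56.1% of all genes. These genes share the same 12 samples, so they are not independent of each other.

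The CD3 chains, which couple the T cell receptor to its signal, had higher estimates in Apoe-/-AhR-/- livers mainly through the females. Cd3e had 2.19, 1.2 and 1.05 CPM in Apoe-/-AhR-/- females against 0.345, 0.109 and 0.333 CPM in Apoe-/- females. In males it had 0.552, 0.0775 and 0.434 CPM in Apoe-/-AhR-/- livers against 0.168, 0.31 and 0.51 CPM in Apoe-/- livers. The females therefore did not overlap and the males did. Averaged over the sexes, the log2 fold change of Cd3e was 1.28 ± 0.49 (SE, edgeR adjusted p = 0.235), and 0.96 ± 0.49 without the 2 neural libraries. Cd3d, another CD3 chain, had 2.1, 1.44 and 0.828 CPM in Apoe-/-AhR-/- females against 0.621, 0.436 and 0.0832 CPM in Apoe-/- females and 0.749, 0.31 and 0.434 CPM in Apoe-/-AhR-/- males against 0.252, 0.619 and 0.191 CPM in Apoe-/- males (log2 fold change over both sexes 1.21 ± 0.49, edgeR adjusted p = 0.262, and 0.97 without the 2 neural libraries). As for Cd3e, the Cd3d values overlapped in males and not in females. Cd3g had 3.84, 3.12 and 1.6 CPM in Apoe-/-AhR-/- females against 1.52, 0.763 and 0.666 CPM in Apoe-/- females, and overlapping values of 0.749, 0.775 and 0.947 CPM in Apoe-/-AhR-/- males against 0, 0.697 and 1.08 CPM in Apoe-/- males. The log2 fold change of Cd3g over both sexes was 0.97 ± 0.51 (edgeR adjusted p = 0.392), and 0.57 ± 0.35 without the 2 neural libraries. Cd247, which encodes the zeta chain of the receptor complex, had 1.37, 0.781 and 1.05 CPM in Apoe-/-AhR-/- females against 0.207, 0.218 and 0.0832 CPM in Apoe-/- females. Its male values were 0.473, 0.388 and 0.316 CPM in Apoe-/-AhR-/- livers against 0.588, 0.155 and 0.764 CPM in Apoe-/- livers, which overlapped. Over both sexes Cd247 had 1.12 ± 0.45 (edgeR adjusted p = 0.258), and 1.08 ± 0.50 without the 2 neural libraries. An antisense gene, Gm48719, overlaps Cd3e on the opposite strand, and 5 genes overlap Cd247 on its opposite strand. Whether counting used strand is not known from the sources, so reads of such partners cannot be told apart.

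Cd3g, Cd3d and Cd3e are neighbours on chromosome 9, where the starts of Cd3g and Cd3d lie 1355 bases apart. The promoters of 2 of these neighbours, Cd3d and Cd3e, are shown. Each window runs from 250 bases before to 50 bases after the RefSeq start (GRCm38.p6), 5′ to 3′ on the gene's strand, and capitals mark AGGAAG, the core of an ETS factor motif, or its reverse complement CTTCCT.
Cd3d, chr9:44981536-44981835, plus strand: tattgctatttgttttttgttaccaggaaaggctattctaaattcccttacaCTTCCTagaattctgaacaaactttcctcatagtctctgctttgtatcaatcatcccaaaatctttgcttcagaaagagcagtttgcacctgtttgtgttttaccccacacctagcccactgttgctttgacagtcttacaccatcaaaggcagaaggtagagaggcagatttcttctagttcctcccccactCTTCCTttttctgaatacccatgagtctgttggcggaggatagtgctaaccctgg
Cd3e, chr9:45009562-45009861, minus strand: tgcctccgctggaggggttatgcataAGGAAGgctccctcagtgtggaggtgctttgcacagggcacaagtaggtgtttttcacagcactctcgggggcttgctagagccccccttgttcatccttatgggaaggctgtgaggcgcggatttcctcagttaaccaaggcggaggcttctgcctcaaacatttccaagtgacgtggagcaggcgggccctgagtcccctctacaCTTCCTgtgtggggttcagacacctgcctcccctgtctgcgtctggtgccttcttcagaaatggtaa
Both windows held 2 matches, and neither held GCGTG, the core letters bound by the aryl hydrocarbon receptor with its partner Arnt. The window of Cd3g, which is not printed, held neither AGGAAG nor GCGTG on either strand.

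The co-receptor genes differed in how clearly the genotypes parted. Cd8b1, the beta chain of CD8, had the smallest p of the lymphocyte genes in the averaged comparison. It had 2.19, 1.32 and 0.773 CPM in Apoe-/-AhR-/- females against 0.414, 0.436 and 0.583 CPM in Apoe-/- females. In males it had 1.18, 0.93 and 0.355 CPM in Apoe-/-AhR-/- livers against 0, 0.387 and 0.318 CPM in Apoe-/- livers, with 1 Apoe-/-AhR-/- male inside the Apoe-/- range. The log2 fold change over both sexes was 1.64 ± 0.53 (edgeR adjusted p = 0.172), or 1.67 ± 0.53 with an adjusted p of 0.0405 by DESeq2, so the call depended on the tool. Once the neural libraries were dropped, it was 1.17 ± 0.44 (edgeR adjusted p = 0.153). Cd8a, the alpha chain, had 2.19, 3.85 and 1.77 CPM in Apoe-/-AhR-/- females against 0.552, 0.763 and 0.583 CPM in Apoe-/- females, where the groups did not overlap. In males Cd8a had 3.59, 1.16 and 0.868 CPM in Apoe-/-AhR-/- livers against 0.084, 1.24 and 2.61 CPM in Apoe-/- livers. Over both sexes the log2 fold change was 1.27 ± 0.56 (edgeR adjusted p = 0.299), and 1.08 ± 0.44 without the 2 neural libraries. Cd4, the co-receptor of helper T cells, had 0.823, 0.661 and 1.05 CPM in Apoe-/-AhR-/- females against 0.759, 0.109 and 0.416 CPM in Apoe-/- females and 0.591, 1.16 and 0.631 CPM in Apoe-/-AhR-/- males against 0.756, 0.542 and 0.255 CPM in Apoe-/- males. The genotypes overlapped for Cd4 in both sexes, and its log2 fold change over both sexes was 0.75 ± 0.45 (edgeR adjusted p = 0.454), and 0.95 ± 0.47 without the 2 neural libraries.

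**Figure D2:**
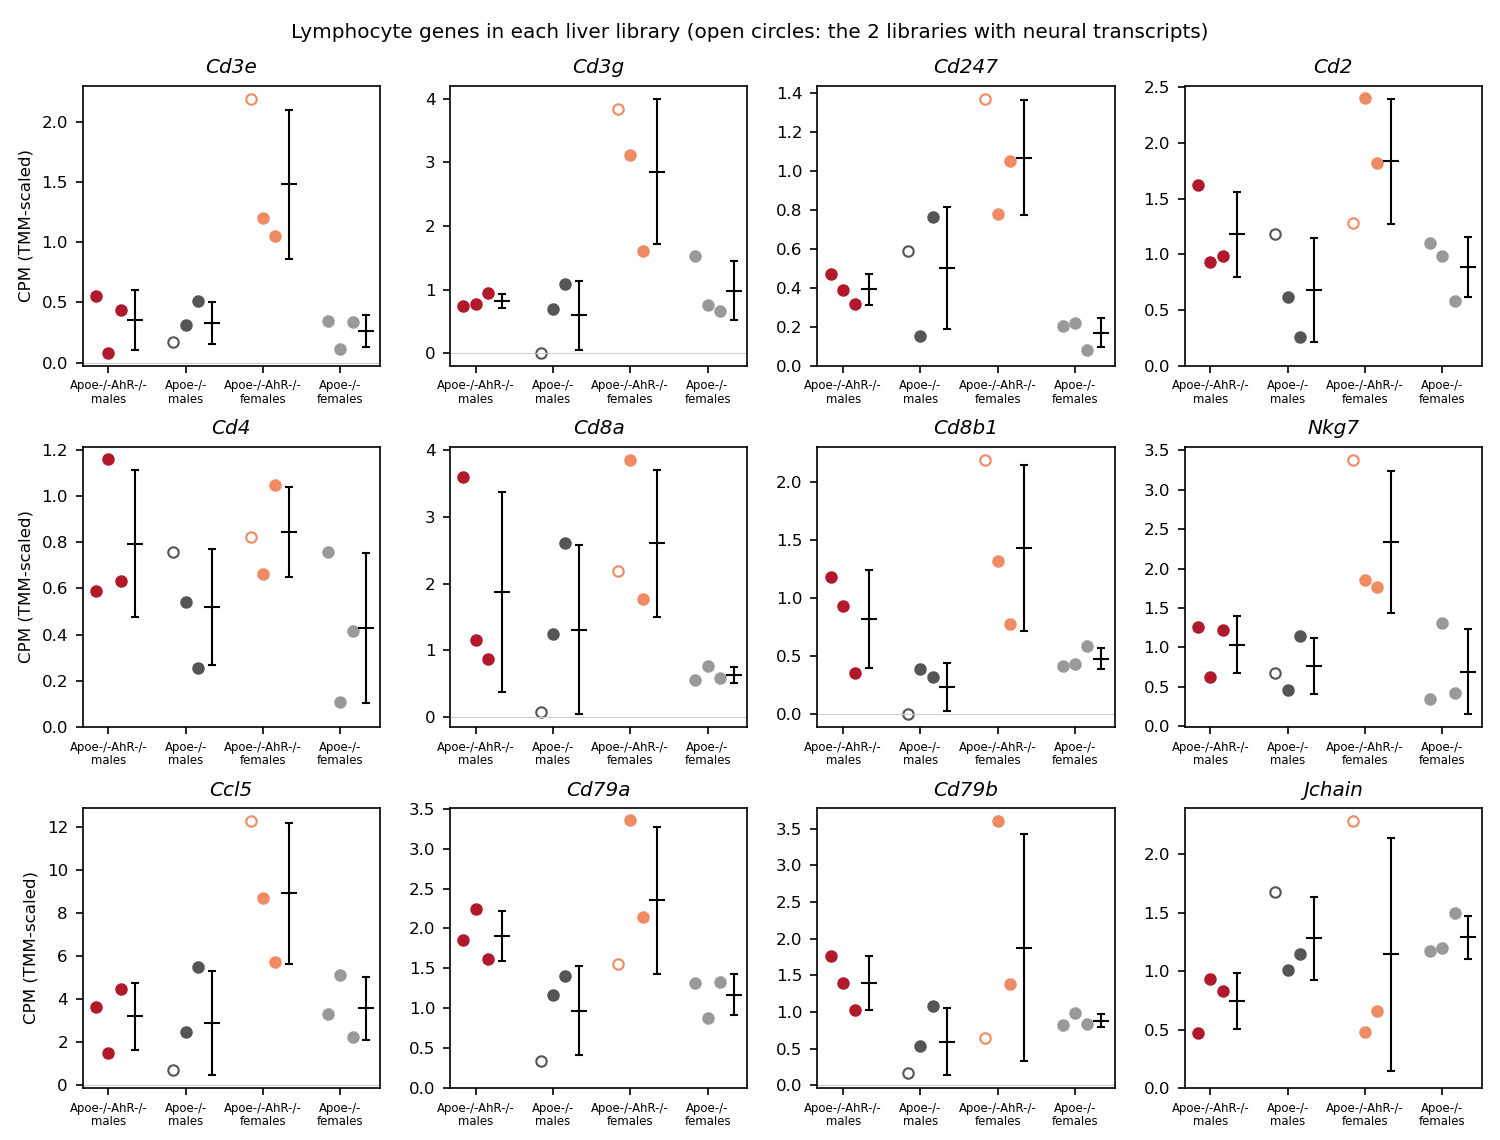
Levels (TMM-scaled CPM) of 12 lymphocyte genes in each of 12 libraries by group, with bars for the mean ± SD of 3 libraries and open circles for the 2 libraries with neural transcripts. For Cd3e, Cd247 and Cd8a the Apoe-/-AhR-/- females lay above every Apoe-/- female, while in males the genotypes overlapped.

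The kinases and adhesion receptors were split. Lck, the kinase that starts the receptor signal, had 3.29, 9.37 and 6.95 CPM in Apoe-/-AhR-/- females against 6.28, 6.76 and 8.49 CPM in Apoe-/- females. In males it had 6.5, 4.19 and 2.92 CPM in Apoe-/-AhR-/- livers against 5.04, 3.87 and 4.59 CPM in Apoe-/- livers, and the genotypes overlapped in both sexes. Its log2 fold change over both sexes was -0.05 ± 0.27 (edgeR adjusted p = 0.953), with a 95% interval of -0.63 to 0.52, and it was 0.16 ± 0.23 without the 2 neural libraries. Lck made up 10.2% to 50% of the summed level of the 16 T cell genes in a library, so that sum follows Lck in part. Per length it had 1.94 CPM per kb over the 12 libraries, against 0.149 for Cd3e. Apoe-/-AhR-/- female replicate 1, with the highest Cd3e at 2.19 CPM, had 3.29 CPM of Lck. Which cells the Lck reads came from was not tested. Zap70, the kinase recruited to the phosphorylated CD3 chains, had a log2 fold change over both sexes of 0.84 ± 0.39 (edgeR adjusted p = 0.323), and 0.48 ± 0.35 without the 2 neural libraries. Cd2, an adhesion receptor of T and NK cells, had 1.28, 2.4 and 1.82 CPM in Apoe-/-AhR-/- females against 1.1, 0.982 and 0.583 CPM in Apoe-/- females and 1.62, 0.93 and 0.986 CPM in Apoe-/-AhR-/- males against 1.18, 0.619 and 0.255 CPM in Apoe-/- males. The log2 fold change over both sexes of Cd2 was 0.93 ± 0.38 (edgeR adjusted p = 0.262), and it was 1.37 ± 0.36 (edgeR adjusted p = 0.0555) without the 2 neural libraries, the smallest p of the lymphocyte genes in that fit. Cd6, a co-stimulatory receptor, had 1.01, 1.02 and 1.49 CPM in Apoe-/-AhR-/- females against 0.552, 0.109 and 0.666 CPM in Apoe-/- females, without overlap. In males Cd6 had 0.434, 0.465 and 0.197 CPM in Apoe-/-AhR-/- livers against 0.252, 0.542 and 0.764 CPM in Apoe-/- livers. Its log2 fold change over both sexes was 0.40 ± 0.45 (edgeR adjusted p = 0.732), and 0.29 ± 0.45 without the 2 neural libraries. Il7r, the receptor for the survival cytokine interleukin-7, and Ccr7, the homing receptor of naive T cells, had log2 fold changes over both sexes of -0.43 and -0.01. Without the 2 neural libraries Il7r had -0.56 and Ccr7 0.23, a change of sign for Ccr7. Cxcr6, a chemokine receptor of liver-resident lymphocytes, had 0.86 ± 0.65, and 0.46 ± 0.63 without the 2 neural libraries. Cd5 and Cxcr3 were below the low-count filter, with log2 fold changes of 1.01 ± 0.76 and 0.71 ± 0.53 in the fit without it.

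The cytotoxic and NK genes divided by abundance. Nkg7 had 3.38, 1.86 and 1.77 CPM in Apoe-/-AhR-/- females against 0.345, 1.31 and 0.416 CPM in Apoe-/- females, without overlap. In males it had 1.26, 0.62 and 1.22 CPM in Apoe-/-AhR-/- livers against 0.672, 0.465 and 1.15 CPM in Apoe-/- livers. Over both sexes the log2 fold change was 1.12 ± 0.41 (edgeR adjusted p = 0.21), and 0.94 ± 0.42 without the 2 neural libraries. Ccl5 had 12.3, 8.71 and 5.74 CPM in Apoe-/-AhR-/- females against 3.31, 5.13 and 2.25 CPM in Apoe-/- females and 3.63, 1.47 and 4.46 CPM in Apoe-/-AhR-/- males against 0.672, 2.48 and 5.48 CPM in Apoe-/- males. The Ccl5 values did not overlap in females and overlapped in males, with a log2 fold change over both sexes of 0.74 ± 0.42 (edgeR adjusted p = 0.435), and 0.39 ± 0.33 without the 2 neural libraries. The promoter of Nkg7 is shown as that of the killer cell gene with the smallest p, with capitals for the ETS core and for ACCACA, the reverse complement of the RUNX core TGTGGT.
Nkg7, chr7:43436888-43437187, plus strand: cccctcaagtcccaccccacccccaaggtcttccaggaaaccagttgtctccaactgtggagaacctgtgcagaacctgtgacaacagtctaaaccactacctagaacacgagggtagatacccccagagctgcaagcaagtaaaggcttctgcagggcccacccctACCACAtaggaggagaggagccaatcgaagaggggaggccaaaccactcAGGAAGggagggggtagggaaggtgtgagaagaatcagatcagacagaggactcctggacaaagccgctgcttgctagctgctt
It held 1 match to each.

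The granule effectors themselves were near the detection limit. Gzmb, granzyme B, had 0, 0.3 and 0.552 CPM in Apoe-/-AhR-/- females against 0.414, 0.545 and 0.333 CPM in Apoe-/- females. In males it had 0.67, 0.388 and 0.947 CPM in Apoe-/-AhR-/- livers against 0.084, 0.929 and 0.382 CPM in Apoe-/- livers, and its log2 fold change over both sexes was 0.04 ± 0.62 (edgeR adjusted p = 0.985), and 0.08 ± 0.45 without the 2 neural libraries. Gzma, granzyme A, had 16 counts in all in Apoe-/-AhR-/- females (1.01, 0.3 and 0 CPM) against 2 in Apoe-/- females (0.069, 0.109 and 0 CPM), a ratio of 6.25 with a 95% counting interval of 1.47 to 56. In males Gzma had 0.0788, 0.155 and 0.237 CPM in Apoe-/-AhR-/- livers against 0.084, 0.387 and 0.127 CPM in Apoe-/- livers. Prf1, perforin, had 0.0914, 0.24 and 0.331 CPM, 11 counts in all, in Apoe-/-AhR-/- females and 0 counts in all 3 Apoe-/- females. Against a floor of 3 counts over the group, that is at least 2.86-fold higher in Apoe-/-AhR-/- females. In males Prf1 had 0.276, 0 and 0.158 CPM in Apoe-/-AhR-/- livers against 0.42, 0.0774 and 0.191 CPM in Apoe-/- livers. These intervals and floors cover counting error only. The NK receptor genes Klrb1c, Klrd1 and Ncr1 and the transcription factors Eomes and Tbx21 did not pass the low-count filter. Their log2 fold changes over both sexes without the filter were -0.44 ± 0.86, 0.21 ± 0.57, -1.17 ± 0.91, 0.32 ± 0.85 and 0.49 ± 0.68 in that order, so Klrb1c and Ncr1, the defining NK receptors, had negative estimates.

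Among the 31 lymphocyte genes, the B cell gene Cd79a was the only 1 whose Apoe-/-AhR-/- libraries lay above the Apoe-/- libraries within each sex, where 0.944% of all 20027 genes did so. In 0 of the 31 did they lie below within each sex, where 1.13% of all genes did. Cd79a had 1.55, 3.36 and 2.15 CPM in Apoe-/-AhR-/- females against 1.31, 0.872 and 1.33 CPM in Apoe-/- females, and 1.85, 2.25 and 1.62 CPM in Apoe-/-AhR-/- males against 0.336, 1.16 and 1.4 CPM in Apoe-/- males. Its log2 fold change over both sexes was 0.98 ± 0.34 (edgeR adjusted p = 0.198), with 0.95 ± 0.49 in males and 1.0 ± 0.49 in females. With the neural libraries left out, it was 0.90 ± 0.27 (edgeR adjusted p = 0.0834). Cd79b, its partner in B cell receptor signalling, had 0.64, 3.61 and 1.38 CPM in Apoe-/-AhR-/- females against 0.828, 0.982 and 0.832 CPM in Apoe-/- females and 1.77, 1.4 and 1.03 CPM in Apoe-/-AhR-/- males against 0.168, 0.542 and 1.08 CPM in Apoe-/- males. Each sex overlapped for Cd79b through 1 Apoe-/-AhR-/- library, and the log2 fold change over both sexes was 1.14 ± 0.46 (edgeR adjusted p = 0.258), and 1.14 ± 0.36 without the 2 neural libraries. Ms4a1, which encodes the surface marker CD20, had 1.65, 0.901 and 0.717 CPM in Apoe-/-AhR-/- females against 0.276, 0.872 and 0.166 CPM in Apoe-/- females. Its male values were 0.591, 0.388 and 0.67 CPM in Apoe-/-AhR-/- livers against 0, 0.542 and 0.191 CPM in Apoe-/- livers, with a log2 fold change over both sexes of 1.25 ± 0.58 (edgeR adjusted p = 0.329), and 0.83 ± 0.50 without the 2 neural libraries.

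The promoter of Cd79a is shown because its genotypes did not overlap. Capitals mark CACGC, the reverse complement of the receptor core GCGTG, and AGGAAG.
Cd79a, chr7:24897247-24897546, plus strand: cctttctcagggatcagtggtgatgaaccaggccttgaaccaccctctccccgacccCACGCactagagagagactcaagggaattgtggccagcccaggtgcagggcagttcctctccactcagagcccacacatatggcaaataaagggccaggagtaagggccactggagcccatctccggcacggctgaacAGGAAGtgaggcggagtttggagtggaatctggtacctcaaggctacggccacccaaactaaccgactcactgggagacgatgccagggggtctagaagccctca
Promoters were found for 22 of the lymphocyte genes, 26 windows in all, because Lck, Ncr1 and Zap70 had alternative starts. The windows of Ncr1 overlap, so the same TGTGGT matches count in each of them. GCGTG was in 6 of these windows (23.1%), of Cd79a, Cd8a, Cxcr3, Pax5 and Zap70, and in 32.4% of all 32851 windows. AGGAAG was in 57.7% of the lymphocyte gene windows and in 35.4% of all, and TGTGGT in 46.2% and 16.8%. CCCNNGGG, the core of an EBF factor motif, was in 7.69% and 13.7%. Both strands were searched, and no matches overlapped in the windows printed here. A match is a description of the letters and not of binding.

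The remaining B lineage genes were Jchain and Pax5, and neither passed the test. Jchain, which joins secreted antibody units in plasma cells, had 2.29, 0.481 and 0.662 CPM in Apoe-/-AhR-/- females against 1.17, 1.2 and 1.5 CPM in Apoe-/- females. In males it had 0.473, 0.93 and 0.828 CPM in Apoe-/-AhR-/- livers against 1.68, 1.01 and 1.15 CPM in Apoe-/- livers, without overlap. The log2 fold change over both sexes of Jchain was -0.50 ± 0.40 (edgeR adjusted p = 0.606), and -0.84 ± 0.34 (edgeR adjusted p = 0.176) without the 2 neural libraries. Its value in Apoe-/-AhR-/- female replicate 1, one of those libraries, was the highest of the 12. Pax5, the transcription factor that sets B cell identity, had 2.29, 14.5 and 5.91 CPM in Apoe-/-AhR-/- females against 8.49, 31 and 12.3 CPM in Apoe-/- females and 9.15, 9.3 and 2.92 CPM in Apoe-/-AhR-/- males against 11.3, 3.87 and 3.25 CPM in Apoe-/- males. Pax5 made up 27.2% to 88.8% of the summed B and plasma cell level, and its values did not follow those of Cd79a across the libraries: the library with 31 CPM of Pax5 had 0.872 CPM of Cd79a. Pax5 overlaps 3 genes on the opposite strand. Its log2 fold change over both sexes was -0.48 ± 0.49 (edgeR adjusted p = 0.702), and it turned to 0.13 ± 0.46 (edgeR adjusted p = 0.91) without the 2 neural libraries. In males the Pax5 estimate was 0.21 ± 0.70 with those libraries and 0.99 ± 0.68 without them.

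Summed over the genes of each kind, the T cell level was 14.6 to 32.2 CPM in Apoe-/-AhR-/- livers and 12.4 to 18.4 CPM in Apoe-/- livers, a ratio of means of 1.54, or 1.37 without the 2 neural libraries. The cytotoxic and NK sum was 3.1 to 18.2 CPM in Apoe-/-AhR-/- livers against 2.52 to 9.49 CPM in Apoe-/- livers, a ratio of 1.67, or 1.25 without those libraries. Ccl5 alone made up 26.7% to 68.3% of the cytotoxic and NK sum in a library, so that sum follows Ccl5 in large part. For the B and plasma cell sum the ratio was 0.85, or 0.89 without the 2 neural libraries, and it turned to 1.33 on the unscaled library total and to 1 without the mitochondrial genes. Markers of other cell types also differed in level between the genotypes. With Apoe-/-AhR-/- livers over Apoe-/- livers, hepatocyte markers had a ratio of 1.66, or 1.32 without the 2 neural libraries, from 26500 to 80800 CPM in Apoe-/-AhR-/- livers and 22300 to 27700 CPM in Apoe-/- livers. Cholangiocyte markers had a ratio of 1.75, or 1.14 without the 2 neural libraries, from 49.5 to 269 CPM in Apoe-/-AhR-/- livers and 30.8 to 130 CPM in Apoe-/- livers. Apoe-/-AhR-/- female replicate 1 held the highest value of both lists. In that library Alb had 54900 of the 80800 CPM of hepatocyte markers and Spp1 202 of the 269 CPM of cholangiocyte markers. Each of these sums thus follows a single gene in large part. Dendritic cell markers had a ratio of 1.48, or 1.36 without the 2 neural libraries, from 77 to 157 CPM in Apoe-/-AhR-/- livers and 60.3 to 82.2 CPM in Apoe-/- livers. That sum follows Bst2 in large part, which had 131 of the 157 CPM in Apoe-/-AhR-/- male replicate 3. Bst2 had 32.9 to 131 CPM in Apoe-/-AhR-/- livers and 26.9 to 39.4 CPM in Apoe-/- livers, so the ratio does not describe the remaining dendritic cell markers. The ratio was 1.09 for pan-leucocyte markers, 1.05 for Kupffer cell markers, 1.14 for neutrophil markers, 1.2 for stellate cell markers and 0.902 for sinusoidal endothelial markers. Without the 2 neural libraries those ratios were 0.977, 0.938, 1.1, 1.08 and 0.977 in the same order, so those of pan-leucocyte and Kupffer cell markers fell below 1. The part of cell composition, of the mitochondrial share and of the neural libraries in the lymphocyte values was not tested.

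Within each sex the same genes were set against their own controls. In females 0 of the 22 tested lymphocyte genes passed edgeR's test, where 0.161% of all tested genes did, and limma called 0. DESeq2 called Cd247 (2.66 ± 0.82, adjusted p = 0.0402) and Cd3e (2.44 ± 0.77, adjusted p = 0.0458), where it called 3.6% of all genes. The edgeR log2 fold changes in females were 2.60 ± 0.67 for Cd247 (adjusted p = 0.142), 2.39 ± 0.70 for Cd3e (adjusted p = 0.176) and 1.80 ± 0.59 for Nkg7 (adjusted p = 0.216). In the fit that lacked the neural libraries, they were 2.41 ± 0.73, 2.02 ± 0.68 and 1.49 ± 0.59, with edgeR adjusted p-values of 0.0909, 0.119 and 0.172. At an unadjusted p under 0.05 without the low-count filter, 7 of the 31 genes were higher, where 6.27% of all genes were, and 0 were lower, where 4.48% were. In 14 of the 31 genes every Apoe-/-AhR-/- female lay above every Apoe-/- female, where 7.74% of all genes did so: Cd3d, Cd3e, Cd3g, Cd247, Cd2, Cd6, Cd8a, Cd8b1, Cxcr3, Ccl5, Prf1, Nkg7, Eomes and Cd79a. In 0 of the 31 did every one lie below, where 7.36% of all genes did. The median log2 fold change in females was 1.28 over the 16 T cell genes, 0.59 over the 10 cytotoxic and NK genes and 1.0 over the 5 B and plasma cell genes, against 0.09 over all genes.

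In males 0 lymphocyte genes passed edgeR's or DESeq2's test, where 0.0367% and 0.777% of all tested genes did. On the deposited values limma also called 0. The smallest p-values were those of Cd8b1 (1.73 ± 0.77, edgeR unadjusted p = 0.044 and adjusted p = 0.851), Cd79a (0.95 ± 0.49, edgeR adjusted p = 0.913) and Cd79b (1.18 ± 0.66, edgeR adjusted p = 0.927). Cd8b1 was the only 1 of the 22 with an unadjusted p under 0.05, where 2.96% of tested genes were higher at that level. Without the low-count filter, 0 of the 31 genes had an unadjusted p under 0.05 in either direction, where 2.31% of all genes were higher and 2.42% lower. Cd79a was without overlap higher, where 5.37% of all genes were, and Jchain without overlap lower, where 5.68% were. The median log2 fold change was 0.29 over the 31 genes and 0 over all genes, with 0.37 over the T cell genes, 0.02 over the cytotoxic and NK genes and 0.97 over the B and plasma cell genes. Without Apoe-/- male replicate 1, which had 0 counts of Cd3g, Cd8b1 and Ms4a1, the male log2 fold changes of Cd8b1, Cd79a and Cd79b were 1.20, 0.56 and 0.77. Without the 2 neural libraries the male estimates of Cd3e, Cd3g, Cd8a and Ccl5 turned to -0.09, -0.10, -0.02 and -0.28, from 0.16, 0.43, 0.50 and 0.15 with all libraries.

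**Figure D3:**
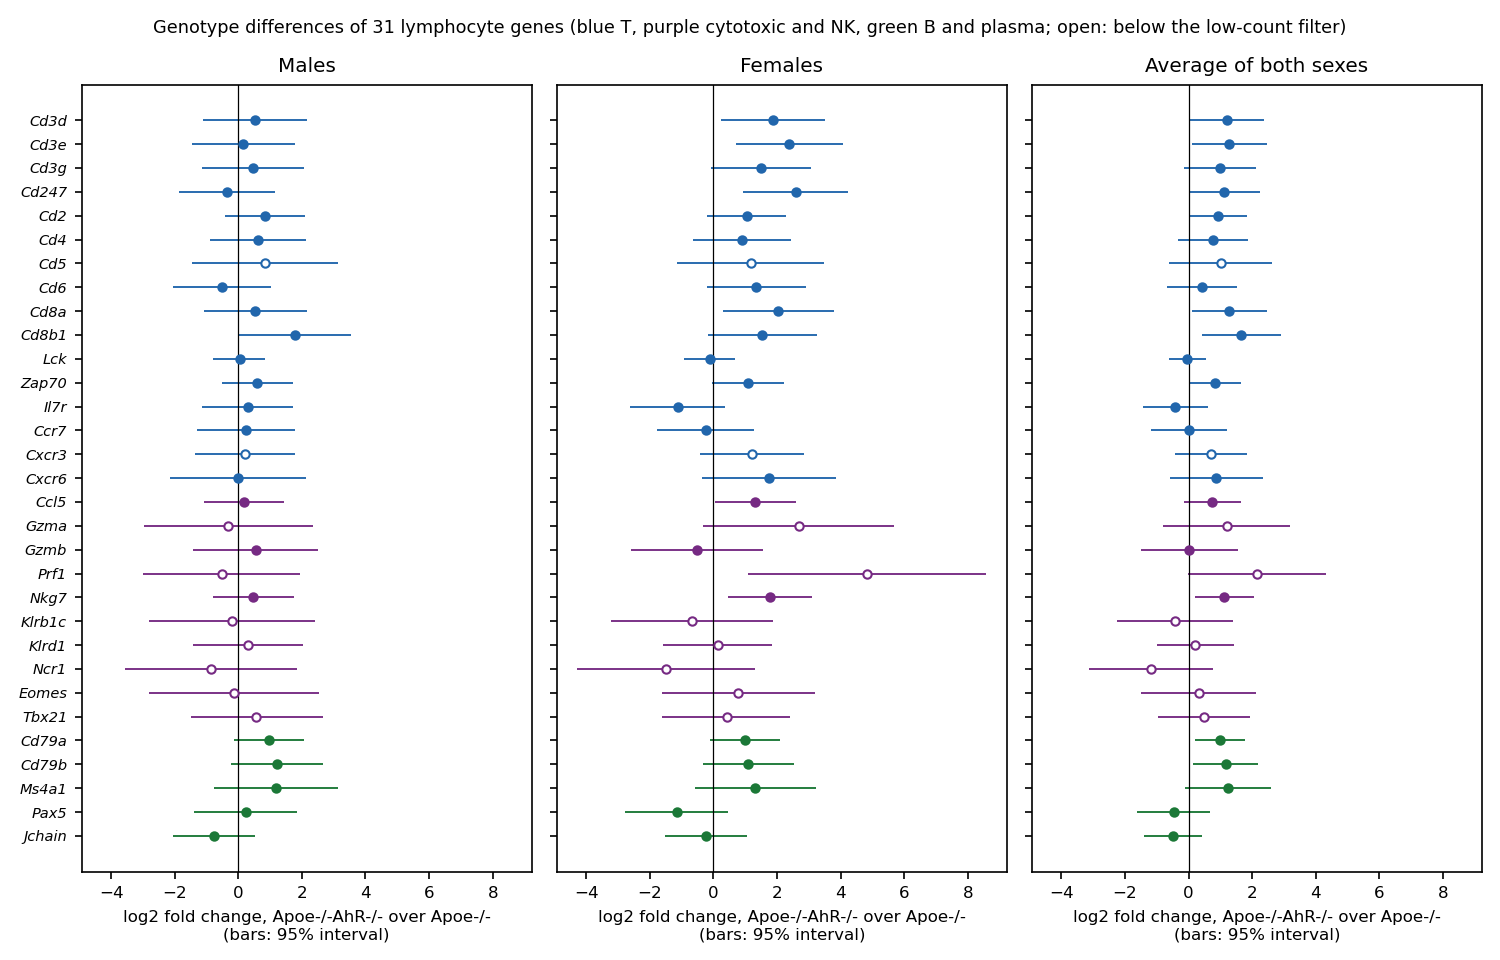
Log2 fold changes (Apoe-/-AhR-/- over Apoe-/-) with 95% intervals for the 31 lymphocyte genes in males, females and the average of both, from the fit without the low-count filter; open circles mark genes below the filter. Cd247 and Cd3e stood at 2.58 and 2.39 in females, while the male intervals of both included 0.

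The difference between the genotype effects, males minus females, was tested directly. In edgeR 0 of the 22 tested genes passed, where 0.00733% of all tested genes did. DESeq2 called 0 of them, where it called 0.147% of all genes, and limma called 0. Cd247 had a difference of -2.96 ± 0.91 on the log2 scale (edgeR adjusted p = 0.855), Cd3e of -2.24 ± 0.99 (edgeR adjusted p = 0.999) and Cd6 of -1.90 ± 0.89 (edgeR adjusted p = 0.999). When both neural libraries were left out, the values were -2.67, -2.12 and -2.32. At an unadjusted p under 0.05 without the low-count filter, 2 of the 31 genes, Cd247 and Prf1, had a lower effect in males, where 5.68% of all genes did, and 0 had a higher one, where 0.974% did. A difference between the male and female genotype effects was thus not shown for any lymphocyte gene.

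Within the Apoe-/-AhR-/- livers, the CD3 chain genes had lower estimates in males than in females, and 0 passed the test. Cd3e had a male minus female log2 difference of -1.94 ± 0.63 (edgeR adjusted p = 0.387), Cd6 of -1.70 ± 0.61 (edgeR adjusted p = 0.456) and Cd3g of -1.77 ± 0.70 (edgeR adjusted p = 0.508). None of the 22 tested genes passed in edgeR, where 0.279% of all tested genes did. DESeq2 called 0, where it called 1.66% of all genes, and limma called 0. For 2 of the 22 genes DESeq2 gave no adjusted p in this contrast, so it could not call them. Without the low-count filter, 4 of the 31 genes were lower in males at an unadjusted p under 0.05, where 4.76% of all genes were, and 0 were higher, where 2.49% were. In 9 of the 31 every male lay below every female, where 5.96% of all genes did so: Cd3d, Cd3e, Cd3g, Cd247, Cd6, Ccl5, Nkg7, Eomes and Ms4a1. Il7r was the reverse, with 1.06, 1.09 and 0.789 CPM in males against 0.64, 0.12 and 0.552 CPM in females, where 3.71% of all genes were without overlap higher in males. The 3 Apoe-/-AhR-/- female libraries include the one with low Xist. Without the 2 neural libraries, Cd3e, Cd6 and Cd3g had differences of -1.52, -1.80 and -1.49 (edgeR adjusted p = 0.265, 0.183 and 0.164).

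In the Apoe-/- livers the estimates between the sexes were mixed. Cd247 had a male minus female log2 difference of 1.55 ± 0.71 (edgeR adjusted p = 0.844), Pax5 of -1.49 ± 0.71 (edgeR adjusted p = 0.878) and Lck of -0.67 ± 0.38 (edgeR adjusted p = 0.925). In edgeR 0 of the 22 passed, where 0.352% of all tested genes did. DESeq2 called 0, where it called 1.04% of all genes, and limma called 0. Without Apoe-/- female replicate 2, which had 31 CPM of Pax5, the Pax5 difference was -0.75. Without the 2 neural libraries it was -2.26 ± 0.70 (edgeR unadjusted p = 0.00909 and adjusted p = 0.296), and Cd247 and Lck had 1.47 and -0.75. At an unadjusted p under 0.05 without the filter, Prf1 was higher in males, where 2.48% of all genes were, and 0 were lower, where 1.97% were. Prf1 had 9 counts in Apoe-/- males against 0 in Apoe-/- females, at least 2.64-fold higher against the floor of 3 counts over the group. Ccr7, Cd8b1 and Lck were lower in every male than in every female, where 7.1% of all genes were, and Prf1 was higher in every male, where 6.96% were.

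Across single libraries the lymphocyte genes did not form 2 clean sets. In the Apoe-/-AhR-/- females, 21, 24 and 25 of the 31 genes lay above their own mean over the 12 libraries, against 15, 15 and 11 in the Apoe-/- females. In the Apoe-/-AhR-/- males, 24, 10 and 18 did, against 10, 11 and 13 in the Apoe-/- males. By this count Apoe-/-AhR-/- male replicate 2 stood among the Apoe-/- libraries. Its T cell sum of 14.6 CPM, and the 15.6 CPM of Apoe-/-AhR-/- male replicate 3, lay inside the Apoe-/- range of 12.4 to 18.4 CPM. The Apoe-/-AhR-/- females had T cell sums of 32.2, 31.5 and 24.5 CPM. For the B and plasma cell genes, male replicate 2 did not stand among the Apoe-/- libraries. Their median deviation from the gene mean was 0.34 in it, on the log2 scale, and -1.81 to 0.22 in the Apoe-/- libraries.

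**Figure D4:**
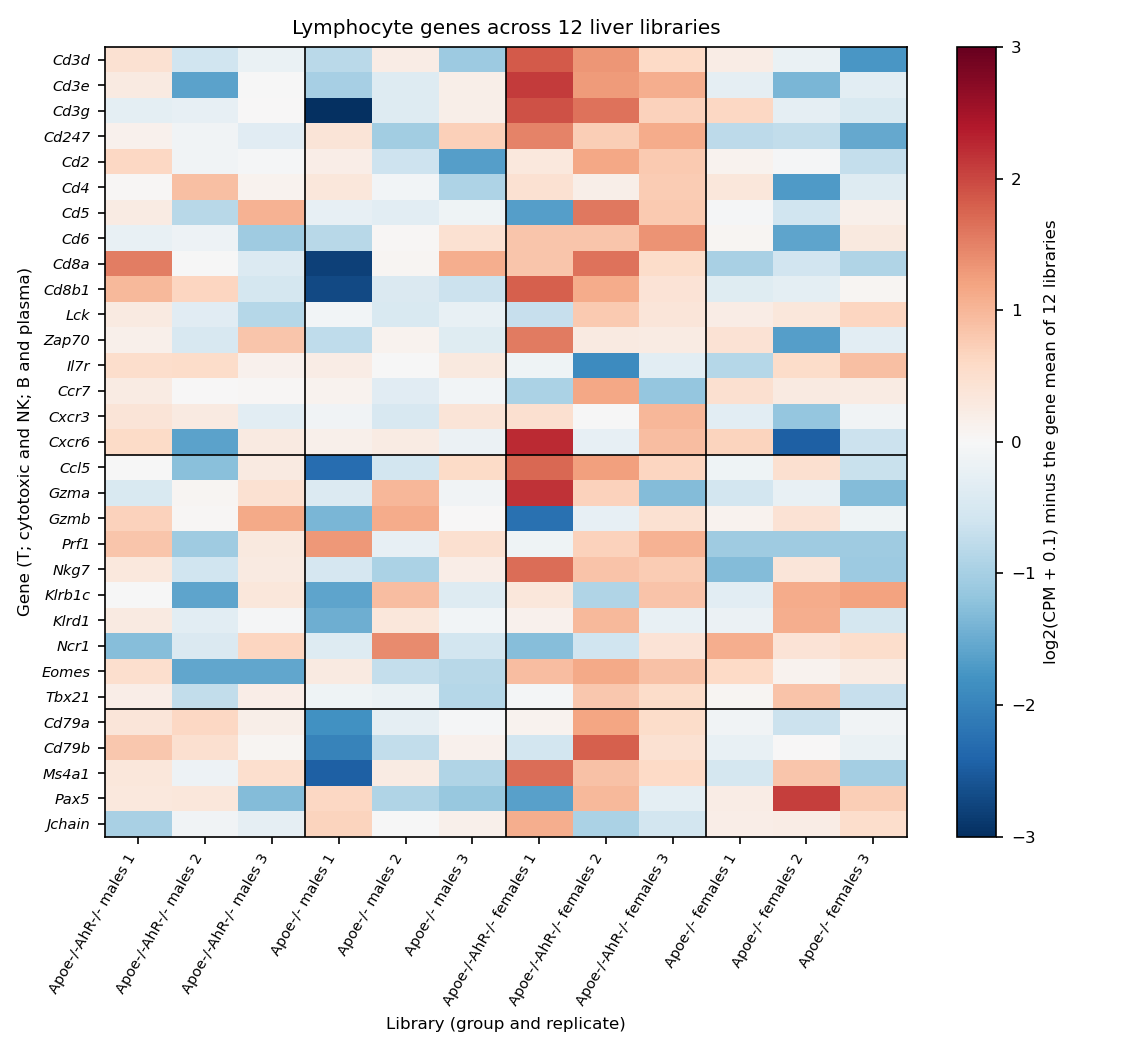
Each gene's log2(CPM + 0.1) minus its mean over 12 libraries, for 31 lymphocyte genes in rows and the libraries in columns by group, on a colour scale cut at -3 and 3. The 3 Apoe-/-AhR-/- females had 21, 24 and 25 genes above their mean, and Apoe-/-AhR-/- male replicate 2 had 10.

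Other genes of the same lineages gave a mixed picture in the averaged comparison, and 0 of them passed edgeR's test. Of 18 tested further T cell genes 12 had positive log2 fold changes, with a median of 0.18. Among them Sh2d2a, an adaptor of activated T cells, had 1.05 ± 0.42 (edgeR adjusted p = 0.255). Of 12 further cytotoxic and NK genes 6 were positive, with a median of -0.16. Zbtb16, a factor of innate-like NK T cells, had -1.12 ± 0.37 (edgeR adjusted p = 0.175), Cx3cr1, a chemokine receptor, -0.75 ± 0.39 (edgeR adjusted p = 0.387) and Cd244a, an NK receptor, 0.93 ± 0.50 (edgeR adjusted p = 0.404). Zbtb16 had 6.91 to 91.2 CPM and Cx3cr1 4.42 to 41.4 CPM across the libraries, where Cd3e had 0.0775 to 2.19 CPM. Which cells these reads came from was not tested, so they cannot be read as lymphocyte RNA alone. Of 13 further B and plasma cell genes 12 were positive, with a median of 0.47, among them Sdc1 at 1.23 ± 0.37 (edgeR adjusted p = 0.149) and Cr2, a complement receptor of B cells, at 1.05 ± 0.42 (edgeR adjusted p = 0.253). That count of positives includes Bank1 and Prdm1, whose estimates round to 0, and Cd38 at 0.01 ± 0.33. Sdc1 marks plasma cells and is also made by hepatocytes, and DESeq2 called it (1.25, adjusted p = 0.0303). Sdc1 had 147 CPM in Apoe-/-AhR-/- female replicate 1, a neural library, and 97.4 CPM in Apoe-/-AhR-/- male replicate 3. The remaining Apoe-/-AhR-/- libraries had 31.1 to 43.5 CPM of it and the Apoe-/- libraries 17.9 to 39.9 CPM. Of 15 chemokine and cytokine genes that draw or sustain lymphocytes 9 were positive, with a median of 0.07, and Tnfsf13b, the B cell survival factor BAFF, had 0.87 ± 0.34 (edgeR adjusted p = 0.236). Ccl21a and Ccl19, ligands of Ccr7, had 0.96 ± 0.50 and 0.61 ± 0.33 (edgeR adjusted p = 0.381 and 0.401). The median over all 13641 tested genes was 0.04, and 54.2% of them were positive. The counts for these further lists cover genes that passed the low-count filter. How many entered it through the Apoe-/-AhR-/- libraries was not examined.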

How the data were processed

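RNA-seq of total RNA from 12 liver samples was analysed, with groups taken from the labels. The table deposited by the authors holds raw counts per gene. The authors also deposited variance-stabilised values close to a log2 scale. Per the submitters' processing notes, FastQC 0.11.8, Trim Galore 0.6.5, STAR 2.7.8, DESeq2 1.28.1 and build GRCm38 were used. No source used here names the read counter or its strand setting.

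Testing used edgeR 4.0.16 under R 4.3.3: filterByExpr by the 4 groups (minimum 10 counts), TMM scaling, and a robust quasi-likelihood fit of 4 group means over 12 libraries (8 residual degrees of freedom). The 6 contrasts were tested two-sided, with Benjamini-Hochberg adjustment over all genes tested, and a call is an adjusted p under 0.05. Fold changes are Apoe-/-AhR-/- over Apoe-/-, or male over female. DESeq2 1.42.0 and limma 3.58.1 (on the deposited log2 values), other scalings, other filters and leaving out each library were alternatives. The fit was also tested on simulated counts.

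Library totals were 9794253 to 18924880 counts, which sets the precision of low genes. Replicates of a group differed beyond sampling noise (chi-square per degree of freedom 22.2 to 248). The labels do not say that each sample is a separate mouse, so p-values cover the spread among the samples only, which may be technical.

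Members and lists were chosen with earlier results of these data known. Named genes were fixed by role (receptor chains, co-receptors, effectors, B cell genes) with, for each contrast, the 3 smallest p-values among the members, and up to 3 per further list; other members are given for completeness. Some genes of the further lists are not reported here. Gene positions come from GENCODE for GRCm38, and promoter sequences from RefSeq (GRCm38.p6).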

Additional observations from a re-analysis of the deposited data

How the results depend on the processing

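The count of lymphocyte genes called was 0 in each of the 6 contrasts under RLE scaling, without the mitochondrial genes, under both other low-count filters, in limma on the deposited values, in edgeR without robust estimation and without the 2 neural libraries (chosen after seeing the data). In the averaged comparison it was 4 with library size alone (Cd2, Cd79a, Cd8b1 and Nkg7) and 1 in DESeq2 (Cd8b1), and in females it was 2 in DESeq2 (Cd247 and Cd3e). With library size alone, the median over all tested genes moved from 0.04 to 0.53 on the log2 scale. Leaving out each library gave 0 to 0 calls in all 6 contrasts. The averaged log2 fold change of Gzmb, 0.04, was -0.04 in limma on the deposited values and -0.40 to 0.48 when each library was left out. That of Ccr7, -0.01, was 0.01 under RLE scaling, without the mitochondrial genes and in DESeq2, 0.53 with library size alone, 0.23 without the 2 neural libraries and -0.73 to 0.20 when each library was left out. That of Lck, -0.05, was 0.45 with library size alone, 0.16 without the 2 neural libraries and -0.23 to 0.11 when each library was left out. Pax5, at -0.48, turned to 0.13 with library size alone and to 0.13 without the 2 neural libraries, and Il7r, at -0.43, to 0.05 with library size alone. The number of all genes called in the averaged comparison, 144, was 1053 with library size alone, 664 in DESeq2 and 432 without the 2 neural libraries. It ran from 6 without Apoe-/-AhR-/- male replicate 1 to 663 without Apoe-/-AhR-/- female replicate 1 (the cause was not tested). In males, 5 genes were called, against 12 with library size alone, 106 in DESeq2, 9 in limma, 27 without the 2 neural libraries, 25 with only the groups compared and 0 to 57 with each library left out. In females the 22 genes became 117, 491, 45, 235, 3 and 3 to 153 under the same alternatives. For the difference between the effects, 1 gene was called, against 3, 20, 4 and 4 under the alternatives that apply and 0 to 2 with each library left out. Between the sexes of Apoe-/-AhR-/- livers the 38 genes became 226 in DESeq2, 110 without the 2 libraries, 0 with only those groups and 11 to 90. Between the sexes of Apoe-/- livers the 48 genes became 142, 79, 189 and 19 to 101. The male median over the 22 lymphocyte genes that passed the low-count filter was 0.44. Without Apoe-/-AhR-/- male replicate 1 it was 0.21, over the 23 genes that passed then, so the set of genes changed as well. No paired analysis was possible because the replicate numbers follow accession order and pair no samples. Depth limits Prf1, Gzma, Ncr1, Klrb1c and Eomes, each of which had libraries with 0 counts.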
